A study of Homo sapiens with 2 samples.

Results

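Antisense transcripts are long noncoding RNAs made from the DNA strand opposite to a host gene, and their symbols are the host's symbol followed by -AS and a number. In an RNA immunoprecipitation of ALKBH5 from HL-60 cells, 67 such symbols were named among the 5851 gene symbols of the deposited tables. Being named does not show that the antisense RNA itself was bound. They were chosen by their spelling, as every symbol ending in -AS and 1 or more digits, among the symbols the authors listed from peaks, so that being listed is how they were selected and not a result. Each was then examined for the gene identifier the tables attach to it, for whether that identifier is its own, its host's or another gene's, and for whether the host symbol was named as well.

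HL-60 is an established human promyelocytic leukaemia line, and ALKBH5 is a demethylase acting on N6-methyladenosine (m6A), a common mark of RNA. An antibody against ALKBH5 was used on 80% of a cell lysate (the immunoprecipitate, IP), 10% was kept as input, and 10% went to rabbit IgG, whose library was not analysed here. The labels hold 1 input and 1 IP library, give the genotype of both as ALKBH5, and state no treatment. The library titles name the opposite group to the library names, which were followed here. The tables list genes annotated to peaks by Gene Ontology (GO) term, by KEGG pathway, and by family of RNA-binding proteins, with no level per gene or per library, so that no difference between IP and input and no replicate error could be computed. Of 6 genes typical of promyelocytes, MPO, PRTN3 and CD33 were named and ELANE, AZU1 and CEBPE were not, and without levels this leaves the cell type unchecked.

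Antisense genes lie opposite a host in several layouts. Some start close to the host's promoter and run away from it, some are transcribed from within the host, and some run into the host from beyond its end. Several are known to act on the host's transcription, splicing or RNA stability, and because host and antisense RNA share sequence in reverse, only reads with a known strand tell them apart. The libraries were made with a stranded kit per the labels' protocols, but whether strand was used when peaks were given to genes is not stated in the sources used here. A peak listed under an antisense symbol could therefore not be told apart from one of its host where both overlap.

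The promoter sequences of antisense genes named under a distant gene's identifier show where these transcripts start. Each window below runs 5′ to 3′ on the gene's own strand from 250 bases before to 50 bases after the start site (RefSeq, GRCh38.p14), and capitals mark the bases that also lie in the host's window. FRY-AS1 (chr13:32031590-32031889, minus strand) and its host FRY (chr13:32031524-32031823, plus strand) start 135 bases apart on opposite strands and share 234 bases. CTBP1-AS2 (chr4:1249190-1249489, plus strand), now CTBP1-DT in RefSeq, shares 191 bases with the window of the nearest of 3 listed starts of CTBP1 (chr4:1249081-1249380, minus strand). ASH1L-AS1 (chr1:155561792-155562091, plus strand) and VLDLR-AS1 (chr9:2622324-2622623, minus strand) start 761 and 586 bases downstream of their host's start and share no base with the host's window.
FRY-AS1: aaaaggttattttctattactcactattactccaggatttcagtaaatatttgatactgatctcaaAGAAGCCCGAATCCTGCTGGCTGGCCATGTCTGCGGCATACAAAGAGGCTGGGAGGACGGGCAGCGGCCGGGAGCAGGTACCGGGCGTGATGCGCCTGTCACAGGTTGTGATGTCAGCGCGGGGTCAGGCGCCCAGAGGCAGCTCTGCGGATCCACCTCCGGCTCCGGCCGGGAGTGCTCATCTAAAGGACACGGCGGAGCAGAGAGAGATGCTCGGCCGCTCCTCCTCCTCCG
FRY: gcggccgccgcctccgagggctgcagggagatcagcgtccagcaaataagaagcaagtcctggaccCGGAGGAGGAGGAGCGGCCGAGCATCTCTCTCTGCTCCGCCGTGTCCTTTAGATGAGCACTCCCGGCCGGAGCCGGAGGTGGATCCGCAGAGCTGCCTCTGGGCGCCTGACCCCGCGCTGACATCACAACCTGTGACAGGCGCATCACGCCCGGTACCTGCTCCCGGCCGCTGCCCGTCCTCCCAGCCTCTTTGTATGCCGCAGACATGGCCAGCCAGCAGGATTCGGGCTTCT
CTBP1-AS2: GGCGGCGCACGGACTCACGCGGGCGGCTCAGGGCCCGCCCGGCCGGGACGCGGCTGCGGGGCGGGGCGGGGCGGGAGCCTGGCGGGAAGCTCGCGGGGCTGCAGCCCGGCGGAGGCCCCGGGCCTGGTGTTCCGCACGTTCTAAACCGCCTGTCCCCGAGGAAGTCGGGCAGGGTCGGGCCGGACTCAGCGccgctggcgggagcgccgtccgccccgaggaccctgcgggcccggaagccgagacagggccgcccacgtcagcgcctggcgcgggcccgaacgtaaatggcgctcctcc
CTBP1: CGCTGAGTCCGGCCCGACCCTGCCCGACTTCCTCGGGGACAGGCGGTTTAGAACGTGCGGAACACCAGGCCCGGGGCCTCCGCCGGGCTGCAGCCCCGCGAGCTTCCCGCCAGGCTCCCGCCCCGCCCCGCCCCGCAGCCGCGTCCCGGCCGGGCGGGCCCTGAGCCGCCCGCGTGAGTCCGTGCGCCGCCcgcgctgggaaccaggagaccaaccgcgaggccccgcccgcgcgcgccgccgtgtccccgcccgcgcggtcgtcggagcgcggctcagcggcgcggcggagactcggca
ASH1L-AS1: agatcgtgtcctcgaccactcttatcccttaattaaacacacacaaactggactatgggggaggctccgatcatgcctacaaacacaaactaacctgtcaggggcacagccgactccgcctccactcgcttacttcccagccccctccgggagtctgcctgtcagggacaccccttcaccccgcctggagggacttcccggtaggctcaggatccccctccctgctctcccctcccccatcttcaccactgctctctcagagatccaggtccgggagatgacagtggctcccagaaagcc
VLDLR-AS1: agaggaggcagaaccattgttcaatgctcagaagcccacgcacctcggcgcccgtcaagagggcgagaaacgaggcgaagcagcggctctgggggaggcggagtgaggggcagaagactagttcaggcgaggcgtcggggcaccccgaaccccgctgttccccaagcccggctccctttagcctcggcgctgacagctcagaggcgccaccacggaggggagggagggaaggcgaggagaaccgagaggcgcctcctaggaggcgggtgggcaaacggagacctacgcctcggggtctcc
The window of FRY-AS1 holds 20 CG dinucleotides and that of CTBP1-AS2 46, against 10 in ASH1L-AS1 and 26 in VLDLR-AS1. In the deposited tables FRY-AS1 and CTBP1-AS2 carry the identifier of AMBRA1 on chromosome 11, ASH1L-AS1 that of YY1AP1, and VLDLR-AS1 that of C16orf89 on chromosome 16.

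None of the 59 antisense symbols in the GO or KEGG table was listed under its own gene identifier. Of the 67, the GO table named 59, the KEGG table named 23 of these, and 8 were in the family table alone, which carries no identifiers. In RefSeq, 58 of the 59 match a noncoding gene with an identifier of its own and TNRC6C-AS1 matches an older symbol of the protein-coding gene TMC6, but 0 of 59 carried the matched identifier (95% interval up to 6.06%; exact Clopper-Pearson, as for all shares here, covering counting error only). The host's identifier stood on 38 (64.4%, 50.9 to 76.4%), AMBRA1's on 12 (20.3%, 11 to 32.8%) and that of another gene on 9 (15.3%, 7.22 to 27%). Of the 5614 symbols of the GO and KEGG tables, 323 (5.75%) had no match in RefSeq and could not be classed. Over all 5291 symbols that RefSeq holds, 2.49% carried an identifier not their own. Among those that are not members, 5159 of 5232 (98.6%) carried their own. The other long noncoding RNAs were like the antisense symbols in this respect, with 0 of 12 under their own identifier (95% interval up to 26.5%). They were mainly read-through transcripts such as SENP3-EIF4A1, listed under a component gene, beside DLEU1 and SNHG14 under AMBRA1. A symbol could enter the GO or KEGG table only under an identifier with a listed term. Whether the own identifiers of these noncoding genes have such a term was not examined. Both counts of 0 could therefore follow from the kind of table, and so could the gap to the 98.6%. The shares by identifier hold only for symbols that entered in this way. How the identifiers were assigned is not given in the sources used here.

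**Figure D1:**
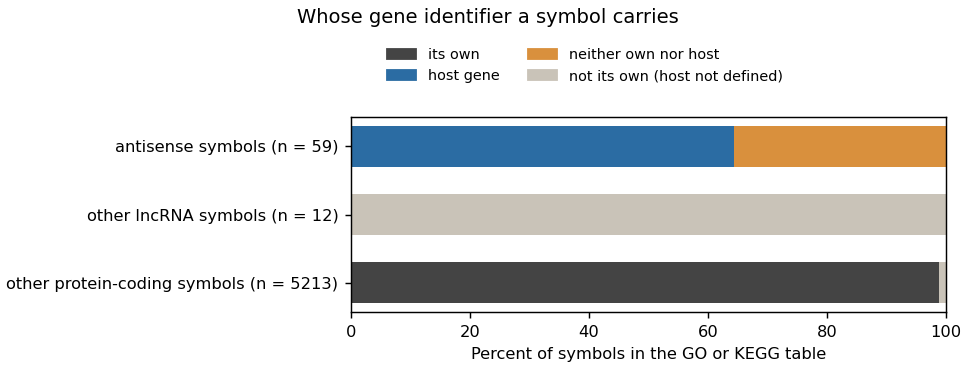
Share of symbols in the GO or KEGG table (x axis, percent) by the gene whose identifier they carry, for 59 antisense symbols, 12 other long noncoding RNAs and 5213 other protein-coding symbols. The own identifier fills almost the whole bar of the protein-coding symbols and is absent from the other bars. Only symbols whose identifier has a listed term could be counted.

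The antisense symbols just outside the spelling rule followed the host pattern. CTBP1-AS and PINK1-AS, which end in -AS with no digit, carried the identifiers of CTBP1 (1487) and PINK1 (65018). CTBP1 thus had 1 antisense symbol under its own identifier and another, CTBP1-AS2, under that of AMBRA1.

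Symbols under the host's identifier differed widely in how many terms held them. MTOR-AS1 (identifier 2475) was an entry of 27 terms and pathways, the highest number in the set. Its host MTOR is the kinase that couples nutrients to growth, and MTOR-AS1 (chromosome 1 from 11143898 to 11149538) lies wholly inside it. CCND2-AS1 (894), opposite the cyclin D2 gene, was an entry of 14 terms. MAP3K14-AS1 (9020), opposite the NF-kappaB-inducing kinase gene, and PLCG1-AS1 (5335), opposite a phospholipase C gene of receptor signalling, were entries of 12 each. CFLAR-AS1 (8837), opposite the caspase-8 inhibitor gene CFLAR, was in 6. Every one of these 5 hosts was named, and the pathways were those of the host: Cell cycle for CCND2-AS1, Apoptosis for CFLAR-AS1 and MAP3K14-AS1, and Acute myeloid leukemia for MTOR-AS1. In the authors' deposited table the corrected p was 0.1 for Cell cycle, 0.236 for Apoptosis and 0.288 for Acute myeloid leukemia.

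Further symbols of this kind were in up to 10 terms. MCM3AP-AS1 (8888; host of mRNA export), PRMT5-AS1 (10419; an arginine methyltransferase) and TBL1XR1-AS1 (79718; a subunit of a co-repressor complex) were in 10 terms each. CACTIN-AS1 (58509) was in 9, and MDC1-AS1 (9656; DNA damage signalling) and TONSL-AS1 (4796; repair of replication forks) were in 8 each. IPO9-AS1 (55705; an importin) was in 7, TMPO-AS1 (7112; a nuclear lamina protein) and BCDIN3D-AS1 (144233; an RNA methyltransferase) in 5, and ZBTB11-AS1 (27107) in 3. GTF3C2-AS1 (2976; RNA polymerase III transcription) and YEATS2-AS1 (55689; a histone reader) were in 2 each, and EDRF1-AS1 (26098) and ZNF337-AS1 (26152) in 1 each. The terms were again those of the host's protein, such as MCM complex for TONSL-AS1, nuclear pore nuclear basket for MCM3AP-AS1 and miRNA metabolic process for BCDIN3D-AS1. None of these named terms had a corrected p under 0.05 in the authors' deposited table.

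The other antisense symbols under the host's identifier had hosts of varied roles. WDFY3-AS1 (23001; an adaptor of selective autophagy) was in 8 terms, and ARAP1-AS2 (116985; a GTPase activator) in 7. DIAPH3-AS1 (81624; an actin-nucleating formin), ELMO1-AS1 (9844; engulfment and Rac signalling), TTC3-AS1 (7267; a ubiquitin ligase) and VPS13A-AS1 (23230; a lipid transfer protein) were in 6 each. FAM13A-AS1 (10144) and PHKA2-AS1 (5256; phosphorylase kinase) were in 4, and STEAP3-AS1 (55240; a metalloreductase of iron uptake) in 3. In 2 terms each were AFAP1-AS1 (60312), AP4B1-AS1 (10717), NCAM1-AS1 (4684), PITRM1-AS1 (10531) and VPS9D1-AS1 (9605). In 1 each were CFAP44-AS1 (55779), GRPEL2-AS1 (134266) and SEMA6A-AS1 (57556).

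Of these 38 hosts, 37 were named (97.4%, 86.2 to 99.9%); FAM13A, a host with a GTPase activator domain, was not. Where the host was named in GO or KEGG, the antisense symbol and the host stood in exactly the same terms in 37 of 37 cases. The host's single identifier was then entered under both symbols, which would by itself give them the same terms. Of the 224 entries of this class, 220 had the host beside them in the same term (98.2%). The remaining 4 entries were those of FAM13A-AS1.

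The antisense symbols under AMBRA1's identifier shared no host and no locus. AMBRA1, a scaffold that starts autophagy, lies on chromosome 11 from 46396412 to 46594023 and has the identifier 55626. The 12 symbols were CTBP1-AS2, DLGAP1-AS1, DPYD-AS1, FRY-AS1, IL10RB-AS1, MZF1-AS1, NIFK-AS1, NUTM2A-AS1, PIK3CD-AS2, SLC25A25-AS1, TNRC6C-AS1 and VAC14-AS1. The 11 with a position lie on 10 chromosomes, and none lies on AMBRA1's. Each was an entry of the same 13 terms, as was every one of the 51 symbols with this identifier, of which they formed 23.5% (12.8 to 37.5%). Of their hosts, 7 were named: CTBP1 (a transcriptional co-repressor), DPYD (pyrimidine breakdown), FRY, MZF1 (a myeloid zinc finger factor), PIK3CD (the leukocyte phosphoinositide 3-kinase), TNRC6C (microRNA silencing) and VAC14 (a scaffold of phosphoinositide synthesis). These hosts carried their own identifiers and shared between 0 and 3 terms with the antisense symbol; PIK3CD, itself in 22 terms, shared 3. The hosts DLGAP1, IL10RB, NIFK, NUTM2A and SLC25A25 were not named, so that these 5 loci entered the GO and KEGG tables under AMBRA1's identifier alone. TNRC6C-AS1 was given no position here.

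The identifiers of the remaining 9 symbols fell into those of neighbours of the named gene and genes elsewhere. SEMA3F-AS1 (chromosome 3 from 50116022 to 50156085) carried the identifier of RBM5 (10181), a splicing regulator gene that it overlaps by 3000 bases, and stood in 10 terms; its host SEMA3F was not named. RBM5 was named too, so mRNA splicing, via spliceosome and regulation of alternative mRNA splicing, via spliceosome each held the RBM5 identifier under both symbols. RBM5-AS1, which lies inside RBM5, carried instead the identifier of C16orf89 (146556) on chromosome 16 and stood in 2 terms. RUSC1-AS1 (chromosome 1 from 155316854 to 155324176) carried that of FDPS (2224), an enzyme of isoprenoid synthesis, and overlaps it by 3812 bases, against 3283 bases with its host RUSC1, which was not named. TMEM147-AS1 (chromosome 19 from 35540738 to 35546029) carried that of GAPDHS (26330), the sperm form of a glycolytic enzyme, with an overlap of 4582 bases against 404 with its unnamed host TMEM147. ASH1L-AS1 carried that of YY1AP1 (55249), whose nearest end is 95497 bases away on chromosome 1, although its host ASH1L was named under its own identifier.

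For VLDLR-AS1, AGAP2-AS1 and SNAI3-AS1, and for RBM5-AS1, the identifier's gene is on another chromosome than the antisense gene. VLDLR-AS1 carried C16orf89's identifier, which 21 symbols shared. AGAP2-AS1 carried that of AGAP1 (116987), a paralog of its host on chromosome 2, while AGAP2 was named under its own (116986). SNAI3-AS1 carried that of MYL10 (93408), and its host was named under its own. Over all 20 antisense symbols with a position and an identifier that was neither own nor host's, 16 had an identifier from another chromosome (80.0%). Of these 16, 11 shared AMBRA1's identifier and 2 shared that of C16orf89, so they are not independent assignments.

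Some genes were in the GO or KEGG table through an antisense symbol alone. The identifiers of AGAP1, YY1AP1, FAM13A, MYL10 and GAPDHS were each carried by 1 symbol, which was AGAP2-AS1, ASH1L-AS1, FAM13A-AS1, SNAI3-AS1 and TMEM147-AS1, and none of these 5 genes was named by its own symbol in any table. GAPDHS was in this way an entry of Glycolysis / Gluconeogenesis and of canonical glycolysis, AGAP1 an entry of Endocytosis, and YY1AP1 one of regulation of cell cycle. Such entries stood in 15 terms, and the terms just named had a corrected p above 0.05 in the authors' deposited table. Among the others of the 15, it was under 0.05 for cytosol (5.9e-11), nucleoplasm (3.05e-20), nucleus (0.00503), nucleolus (1.15e-07) and GTPase activator activity (0.0287). For the other 54 symbols with an identifier, every symbol that shared the identifier stood in the same terms (54 of 54). Where terms are attached to identifiers this must be so, and it is no separate result about the antisense transcripts.

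**Figure D2:**
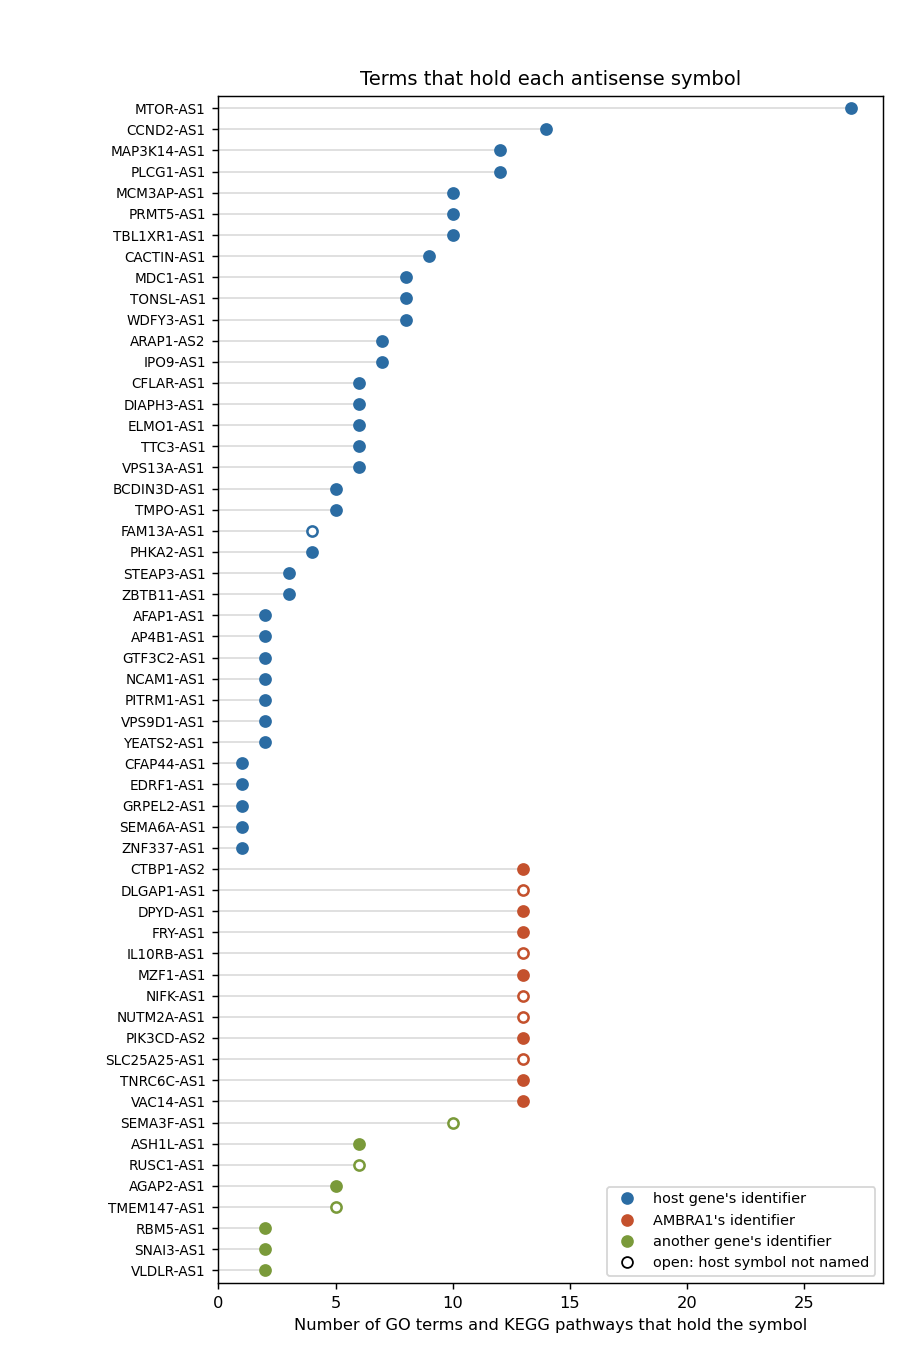
Number of GO terms and KEGG pathways (x axis) that hold each of 56 of the 59 antisense symbols with an identifier (y axis), coloured by whose identifier it is; open circles mark symbols whose host was not named. MTOR-AS1 leads with 27, and the 12 symbols under AMBRA1's identifier all stand at 13.

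Host symbols were named for 55 of the 67 antisense symbols (82.1%, 70.8 to 90.4%). Among all protein-coding genes of RefSeq 26.9% were named, and among protein-coding hosts of any -AS gene 30.5%. Where an antisense symbol carried its host's identifier and both were named, they stood in the same terms and are not independent entries. For such hosts the identifier was already known to have a listed term. This was not required of the genes behind the 26.9% and 30.5%, so the shares are not like for like. Outside the class under the host's identifier, the host was named for 7 of 12 symbols under AMBRA1's identifier (58.3%, 27.7 to 84.8%). It was named for 6 of 9 under another gene's (66.7%, 29.9 to 92.5%) and 5 of 8 with none (62.5%, 24.5 to 91.5%). Differences between these classes were not tested. Host genes had a median extent of 41801 bases (1901 to 959276) and antisense genes of 9822 bases (629 to 227033). By current symbol, 62 of the 2041 -AS genes in RefSeq were named (3.04%); the other 5 members matched by an older symbol. Of 30 often studied noncoding RNAs, mostly antisense, 3 were named: AFAP1-AS1, FOXD2-AS1 and MCM3AP-AS1. OIP5-AS1, FGD5-AS1, ZEB1-AS1 and VIM-AS1 were among those not named.

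Entries on antisense symbols gathered in the terms of AMBRA1. They made up 379 of the 30521 entries of the GO table (1.24%) and 40 of the 2149 of the KEGG table (1.86%), and 144 and 12 of them stood under AMBRA1's identifier. Autophagy - animal had 14 antisense entries among 116 (12.1%, 6.76 to 19.4%), namely the 12 under AMBRA1 with MTOR-AS1 and CFLAR-AS1. The 116 entries hold 59 distinct identifiers. Entries that repeat an identifier are not independent, but the exact intervals of term shares here and below count each as separate. The rich factor, the authors' ratio of a term's entries to its background genes relative to an overall share, stood at 2.72 in the authors' deposited table (corrected p of 6.01e-09) and at 2.39 with the antisense entries left out. With each identifier also counted once it was 1.38, and the antisense symbols then made no difference, because no identifier of this pathway stood on antisense symbols alone.

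In the GO table the highest share was in axoneme, with 12 of 81 entries (14.8%, 7.90 to 24.4%), all under AMBRA1. The rich factor of axoneme stood at 2.31 in the authors' deposited table (corrected p of 0.00398) and at 1.97 without antisense entries, and with each identifier counted once it was 0.884. Identifiers were counted once within the term only, with the overall share left as deposited. Values under 1 in this paragraph therefore do not show depletion. Macroautophagy had 12 of 90 (13.3%), with a rich factor of 2.9 in the authors' deposited table and 2.51 without, and 1.19 with each identifier counted once. Autophagy in GO had 13 of 119 (10.9%; 2.83 in the authors' deposited table and 2.52 without), since VPS13A-AS1 stood beside the 12, and counting each identifier once gave 1.43. Negative regulation of neuron apoptotic process had 12 of 97 (12.4%) and mitochondrial outer membrane 14 of 119 (11.8%), and with each identifier counted once their rich factors were 0.935 and 1.14, against 2.11 and 2.15 in the authors' deposited table. The largest counts were in the broad compartments, with 40 entries in cytosol (1.62%), 31 in cytoplasm (1.56%), 19 in nucleoplasm (0.98%), 18 in nucleus (0.776%) and 15 in mitochondrion (2.63%). Nucleoplasm and nucleus held no symbol under AMBRA1's identifier.

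Of the 100 GO terms with an antisense entry, 27 had a corrected p under 0.05, and of the 20 such KEGG pathways 1 did. Over all listed terms, 38 of 311 GO terms and 2 of 38 KEGG pathways did. The size of the terms was not taken into account, and the difference was not tested. Across the 13 terms with AMBRA1's identifier, the antisense share ran from 1.56 to 14.8%, and 9 of them had a corrected p under 0.05 in the authors' deposited table. The other 107 terms with an antisense entry had a median share of 2.04%. The highest there was 9.09%, in MCM complex (TONSL-AS1, 1 of 11) and in positive regulation of transcription by RNA polymerase III (MTOR-AS1, 1 of 11). In KEGG, Human T-cell leukemia virus 1 infection followed autophagy with 3 of 110 entries (CCND2-AS1, MAP3K14-AS1 and RUSC1-AS1; 2.73%). Endocytosis (AGAP2-AS1 and ARAP1-AS2), Apoptosis, Epstein-Barr virus infection (CCND2-AS1 and MAP3K14-AS1), HIF-1 signaling pathway and Thyroid hormone signaling pathway (MTOR-AS1 and PLCG1-AS1 in both) had 2 each. Cell cycle (CCND2-AS1), RNA transport (PRMT5-AS1) and Phosphatidylinositol signaling system (PLCG1-AS1) had 1 each, and 10 further pathways also had 1. Spliceosome had none.

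**Figure D3:**
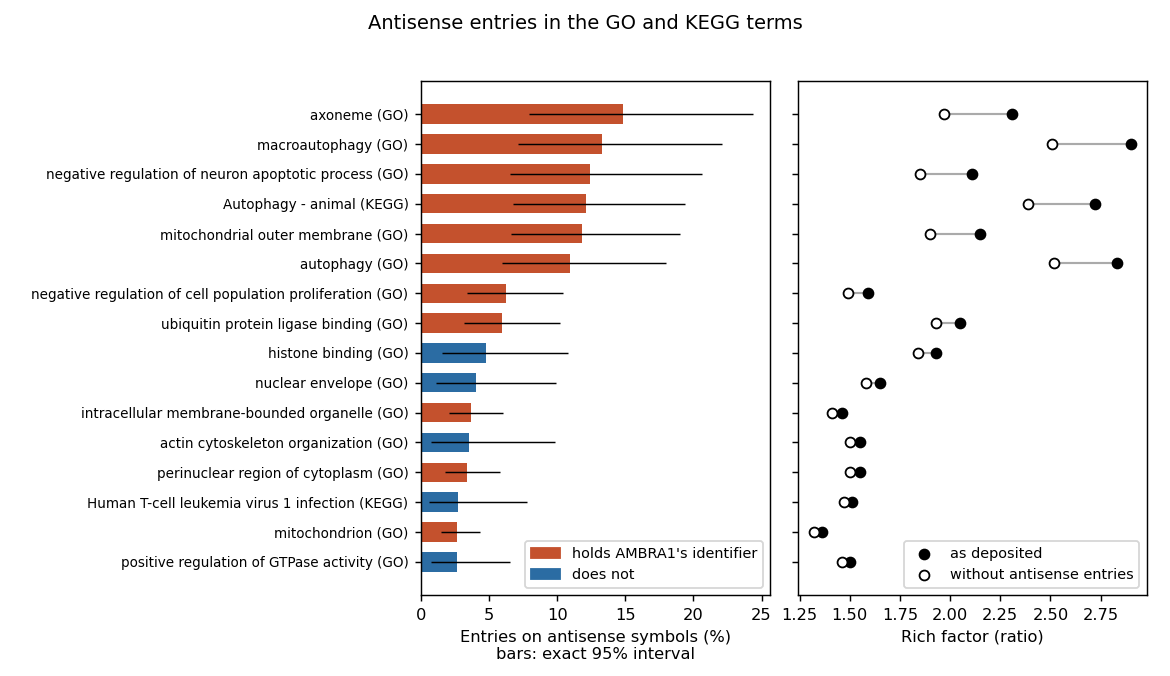
Left, share of a term's entries that stand on antisense symbols (x axis, percent, with exact 95% intervals) for the 16 terms of highest share among those with 3 or more; right, the rich factor as deposited (filled) and without antisense entries (open). The 6 highest shares, from 10.9 to 14.8%, are all in terms that hold AMBRA1's identifier. The intervals count entries that repeat an identifier as separate.

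Most of the antisense genes lie across their host. Of 66 members with a position, 58 overlapped the host's extent (87.9%, 77.5 to 94.6%), against 90.2% of all -AS genes in RefSeq, and 28 lay wholly inside it. All 38 symbols under the host's identifier overlapped the host (95% interval from 90.7%), as did 8 of 9 under another gene's identifier, 7 of 11 under AMBRA1's and 5 of 8 without an identifier. Those that did not overlap included FOXD2-AS1, FRY-AS1, IL10RB-AS1, NDUFA6-AS1, NUTM2A-AS1, SLC25A25-AS1 and SPAG5-AS1. Their gaps to the host were 106 to 160 bases for IL10RB-AS1, SPAG5-AS1, FRY-AS1 and NDUFA6-AS1, and 1925 to 3688 bases for SLC25A25-AS1, FOXD2-AS1 and NUTM2A-AS1. The difference between classes was not tested.

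Both start sites were known for 50 pairs, and all 50 lay on opposite strands. In 14 (28.0%, 16.2 to 42.5%) the starts, taken as the outermost of each gene, were within 2 kb of each other, against 33.0% of all -AS genes in RefSeq with both starts. Of these 14 pairs, 3 had the antisense start upstream of the host's (IL10RB-AS1 by 107 bases, FRY-AS1 by 135 and NDUFA6-AS1 by 161). In 11 it was downstream of the host's outermost start, so that the first parts of both genes overlap. For CTBP1-AS2, counted among the 11, the offset was 915 bases from the outermost start of CTBP1. From the nearest of the 3 listed starts of CTBP1 it was -310 bases, which is upstream. Close starts were found in 5 of 28 pairs under the host's identifier, namely VPS13A-AS1 at 383 bases, IPO9-AS1 at 402, PLCG1-AS1 at 457, TMPO-AS1 at 653 and ZBTB11-AS1 at 702. They were found in 3 of 11 under AMBRA1's, 4 of 7 under another gene's and 2 of 4 without one. The exact intervals of these shares are wide, and the difference between classes was not tested. Over all 50 pairs, 33 antisense genes start inside the host's extent, 13 beyond its 3′ end and 4 upstream of it.

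**Figure D4:**
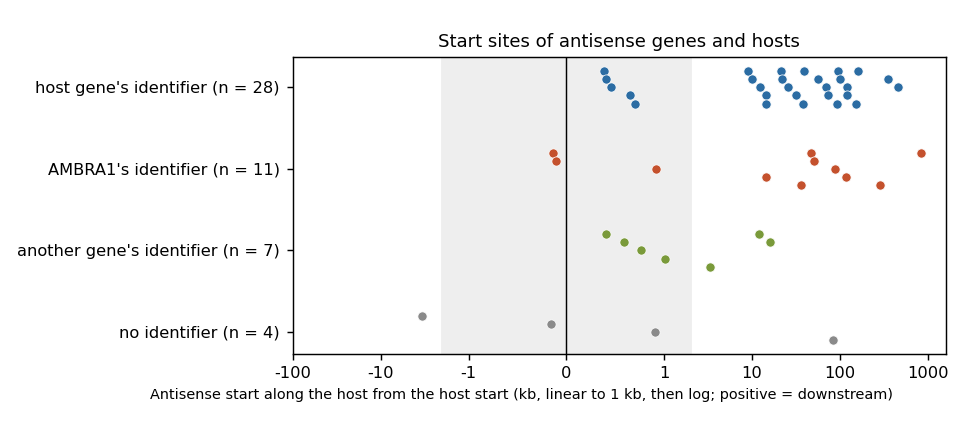
Distance from the host's start site to the antisense start site along the host (x axis in kb, linear to 1 kb and logarithmic beyond, positive downstream) for 50 pairs on opposite strands, 1 point per pair, by identifier class; grey marks 2 kb on either side. In each class points lie both inside the grey band and beyond it, and 1 of the 50 pairs lies between 1.1 and 9 kb downstream.

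Promoter windows were available for 57 antisense genes and 54 hosts. The antisense windows held a median of 10 CG dinucleotides in 300 bases and the host windows 26, against 13 over the 27305 genes with a window. The sequence GGGCGG, on either strand, was in 35.1% of antisense windows, 70.4% of host windows and 44.5% of all windows. CCAAT was in 36.8%, 42.6% and 35.7%, and TATAAA in 14.0%, 0% and 12%, in the same order. These are matches of letters and were not tested.

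The table of RNA-binding protein families named 16 antisense symbols of its 1348. It pairs symbols with the RNA recognition motif family (RRM), the cold shock domain family (CSD), the Pumilio family (PUF) and a combined CCHC zinc finger and RRM family. Since it pairs every symbol with RRM, the pairing is not membership of the gene in a family. All 16 were paired with RRM and CSD, 13 with PUF (81.2%, against 87.8% of all symbols of the table) and 10 with the combined family (62.5%, against 66.2%). Paired with all 4 were C1RL-AS1, DNMBP-AS1, FOXD2-AS1, HYI-AS1, SLC25A25-AS1, SPAG5-AS1 and TBL1XR1-AS1 (7 of 16, 43.8%, 19.8 to 70.1%, against 62.2% of all symbols). AGAP2-AS1 and VPS9D1-AS1 were among those that lacked PUF. AFAP1-AS1, KIAA1614-AS1, MAP3K14-AS1, NDUFA6-AS1, PITRM1-AS1 and YEATS2-AS1 lacked the combined family.

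Of the 16, 8 stood in the GO or KEGG table as well, which is 8 of the 59 antisense symbols there, and 19.8% of all GO or KEGG symbols were in the family table. The 8 without an identifier included C1RL-AS1, DNMBP-AS1, FOXD2-AS1, HYI-AS1, KIAA1614-AS1, NDUFA6-AS1 and SPAG5-AS1. Hosts of 8 of the 16 were in the family table too, among them AFAP1, AGAP2, HYI, KIAA1614, MAP3K14, PITRM1 and SPAG5. The hosts C1RL, DNMBP and NDUFA6 were named in no table. SLC25A25-AS1 was the only symbol both in the family table and under AMBRA1's identifier.

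**Figure D5:**
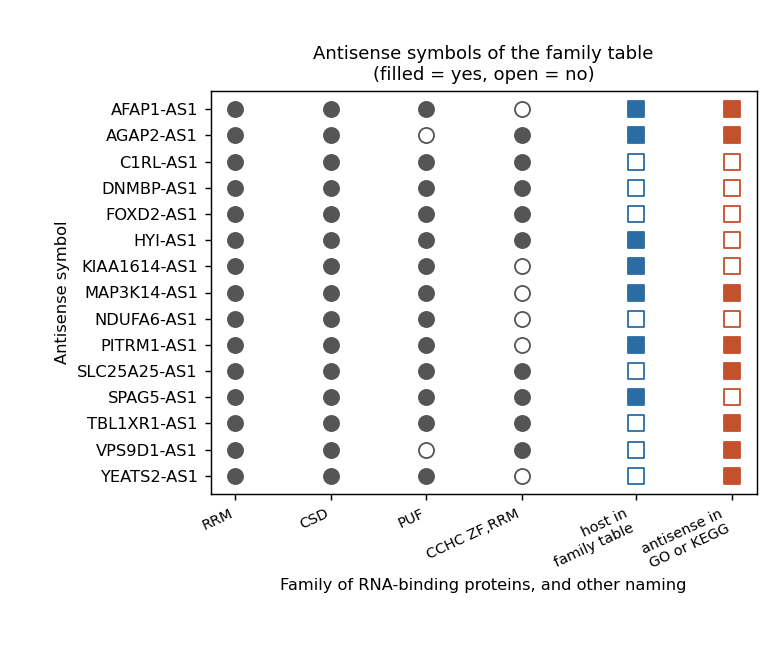
Antisense symbols of the family table (y axis, 15 of 16) and the 4 families each is paired with (circles), whether the host is in the family table (blue squares) and whether the antisense symbol is in the GO or KEGG table (red squares); filled is yes. Every symbol drawn has RRM and CSD, and 7 have a filled blue square.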

How the data were processed

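Peaks of ALKBH5 RNA immunoprecipitation in HL-60 cells were annotated by the authors, on hg38 according to the submitters' processing notes. Aligner and peak caller are not stated in the sources used here. The authors deposited, per term, counts of listed entries and of background genes, a rich factor (a ratio), and a p-value with a corrected p-value, all used as deposited. Entries pair a gene identifier with a symbol. The family table holds text only. The depth behind a symbol is unknown, since neither reads nor individual peaks were analysed here.

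Members were taken with Python 3.11.15 and pandas 2.3.3. The members and lists were chosen with earlier results of these data known. Hosts are symbols without the suffix. Identifiers, extents and start windows came from RefSeq (GRCh38.p14); current symbols were matched first, then older ones (62 and 5 of 67). Where a gene has several starts the outermost was used. Shares carry 95% Clopper-Pearson intervals (SciPy 1.17.1). No test was run, since the symbols were chosen by being named and each group has 1 library. The rich factor without antisense entries was scaled by the entries kept, as was that with each identifier counted once, with the overall share left as deposited. Every member is counted and most are named (a few items are not reported here); terms are the 5 with most antisense entries per table, KEGG pathways with an antisense entry up to 10, and those under AMBRA1's identifier; other terms named were chosen after their values were seen. Sequences are of up to 4 pairs with close starts whose host is named under another identifier. The classification was tested on simulated data. Alternatives were single tables, significant terms, current symbols, other suffixes, distinct identifiers and other start distances.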

Additional observations from a re-analysis of the deposited data

How the results depend on the processing

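The counts of antisense symbols named (67), of those under the host's identifier (38) and of those with a named host (55) stayed within 1.5 times in the GO table alone, with only terms of corrected p under 0.05, with current symbols only and, chosen after seeing the data, without entries under AMBRA1's identifier. In the smaller KEGG table alone they were 23, 8 and 11. In the family table alone, 16 symbols were named and 8 had a named host. Adding symbols in -AS without digits gave 69, and adding -DT, -IT and -OT gave 67. The rich factor of Autophagy - animal without antisense entries, 2.39, became 1.38 with each identifier counted once and 1.38 with only entries under their symbol's own identifier; 38 symbols other than AMBRA1 and the antisense ones also carried AMBRA1's identifier. The 14 pairs with close starts became 13 at 1 kb, 16 at 5 kb and, chosen after seeing the data, 17 by the closest starts of each pair. No paired analysis was possible because each group has 1 library and no value per library was used. In the GO and KEGG tables only genes of listed terms appear, and how the family table was made is not given in the sources used here, so an antisense transcript that is not named may still have had a peak.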
